A study of Homo sapiens with 9 samples.

Results

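The 10 genes described here are 4 that lie together on the short arm of chromosome 9, in band 9p24, and 6 checkpoint ligands encoded elsewhere. They were taken by name from the table of expression values in CAL27 cells, an established line of human tongue squamous cell carcinoma, as 10 of the 78894 Ensembl gene identifiers listed for each library. The 4 genes of 9p24 were CD274, which encodes PD-L1, PDCD1LG2, which encodes PD-L2, JAK2 and PLGRKT. The other 6 were CD276 (B7-H3), PVR (CD155), NECTIN2 (CD112), LGALS9 (galectin-9), CD47 and TNFRSF14 (HVEM). Bulk polyA RNA sequencing was done on 4 groups of CAL27 cells. Control cells gave 3 libraries, whose library names begin with WT, and CRISPR-edited cells labelled A2ko, A8ko and C9ko gave 2 each. The title of the study names an enhancer of head and neck cancer. The labels do not name the sequence that was edited, do not say whether an edited line is 1 clone or a pool, and list no treatment, so the edit itself could not be checked in these libraries. They also do not say whether replicates came from separate cultures, so p-values measure the spread between these libraries, which may be technical.

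Both A2ko files held identical values for all 78894 identifiers, and so did both A8ko files. Taking each pair as a single library leaves 3 distinct Control libraries, 2 of C9ko and 1 apiece of A2ko and A8ko, or 7 in all. Values are in TPM, transcript abundance scaled by transcript length and by the total of the library, and read depth is unknown. The number of genes at or above 1 TPM ran from 15556 to 16716, and mitochondrially encoded transcripts took between 17.9% and 26.9% of the total, lowest in the C9ko libraries. All 10 squamous epithelial markers were above 1 TPM in every library, with a summed level of 15352 to 16539 TPM in Control, 6627 in A2ko, 7895 in A8ko and 10030 to 10224 in the C9ko libraries. Most of that sum is KRT5 and KRT14, basal keratins, which had means of 8917 and 3877 TPM in Control and 5330 and 1265 in C9ko. Of the other 8, limma called DSG3 lower in C9ko and CDH1, ITGB4 and COL17A1 higher, by 0.74, 0.29 and 0.35 on the log2(TPM + 1) scale, and TP63, EPCAM, SFN and KRT17 did not pass.

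Checkpoint ligands are surface or secreted proteins that engage receptors on T cells, natural killer cells or macrophages. PD-L1 and PD-L2 bind PD-1 on T cells and restrain them. In epithelial tumours the CD274 gene is known to respond to interferon-gamma through the kinases JAK1 and JAK2 and the factor IRF1, and CD274, PDCD1LG2 and JAK2 are known to be gained together in some cancers. PVR and NECTIN2 bind the inhibitory receptor TIGIT and the activating receptor CD226, CD47 binds SIRPA on macrophages, galectin-9 binds TIM-3, HVEM binds BTLA and CD160, and B7-H3 has no settled receptor.

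Sequences upstream of 9p24 genes are shown because these genes lie in the same band and yet had unlike patterns across the knockouts. The sequences are those of RefSeq on GRCh38.p14, written 5′ to 3′ on the strand of each gene. Each ends before the first annotated exon base of its gene. Those of CD274 and JAK2 run up to that base. The PLGRKT sequence stops at chr9:5437926, short of the annotated start of that gene at chr9:5437878, so the bases between were not searched. The table of gene starts held 9 of the 10 genes, all but PDCD1LG2, for which no sequence is shown. Capitals in the CD274 sequence mark 2 overlapping matches, on the opposite strand, to GAAA, 2 free bases and GAAA, the core of the interferon-stimulated response element. JAK2 had 4 starts listed, and the first is shown.
CD274, chr9:5450292-5450502, plus strand: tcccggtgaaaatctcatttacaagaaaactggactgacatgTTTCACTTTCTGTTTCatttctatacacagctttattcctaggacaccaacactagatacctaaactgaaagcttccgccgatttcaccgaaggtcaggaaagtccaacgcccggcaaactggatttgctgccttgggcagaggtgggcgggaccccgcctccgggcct
JAK2, chr9:4984140-4984389, plus strand: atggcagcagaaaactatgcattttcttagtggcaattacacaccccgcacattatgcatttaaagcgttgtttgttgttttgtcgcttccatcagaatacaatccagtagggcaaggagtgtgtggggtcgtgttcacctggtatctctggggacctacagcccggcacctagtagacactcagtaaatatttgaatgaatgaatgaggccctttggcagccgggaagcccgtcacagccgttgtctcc
PLGRKT, chr9:5437926-5438175, minus strand: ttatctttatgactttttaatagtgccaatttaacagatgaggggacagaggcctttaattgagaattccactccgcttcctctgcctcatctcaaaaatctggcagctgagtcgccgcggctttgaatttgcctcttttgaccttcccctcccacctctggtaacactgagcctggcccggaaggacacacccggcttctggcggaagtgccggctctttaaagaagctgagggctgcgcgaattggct

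The capitals span 16 bases, chr9:5450334-5450349, and end 154 bases before the annotated start of CD274. Both strands were searched for 4 motifs. The sequences above hold 211 bases for CD274 and 250 for JAK2 and PLGRKT. The shares below come from longer windows, with 250 bases before a listed start and 50 after it. Over all 35116 listed windows of 300 bases, the interferon core was present in 3.57%, TTCNNNGAA, the form bound by STAT factors, in 7.66%, TGANTCA, the AP-1 form, in 7.71%, and GGGA, 1 free base and TTTCC, an NF-kB form, in 0.558%. The CD274 sequence also held 1 match to TTCNNNGAA, outside the capitals, and none to the other 2 motifs. The JAK2 and PLGRKT sequences held none of the 4, which says only that these letters are not in these windows.

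In Control cells the 10 genes covered a wide range of levels, from CD47 at 105 ± 7.02 TPM (SD, n = 3) down to PDCD1LG2 at 0.253 ± 0.112 TPM. NECTIN2 (37.9 ± 2.03 TPM) and CD276 (35.5 ± 1.79 TPM) came next and overlapped each other. PLGRKT (25.5 ± 0.701 TPM) and PVR (24.1 ± 3.84 TPM) followed and overlapped too. TNFRSF14 stood at 13.8 ± 1.40 TPM, LGALS9 at 11.5 ± 0.481 TPM, CD274 at 3.06 ± 0.370 TPM and JAK2 at 2.00 ± 0.0940 TPM, with no overlap between neighbours in that order. In C9ko the order was the same except that PVR (38.0 ± 2.01 TPM, SD, n = 2) and PLGRKT (37.0 ± 0.591 TPM), which again overlapped, changed places, and CD276 (62.9 ± 1.16 TPM) stood clear of NECTIN2 (84.2 ± 2.16 TPM).

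**Figure D1:**
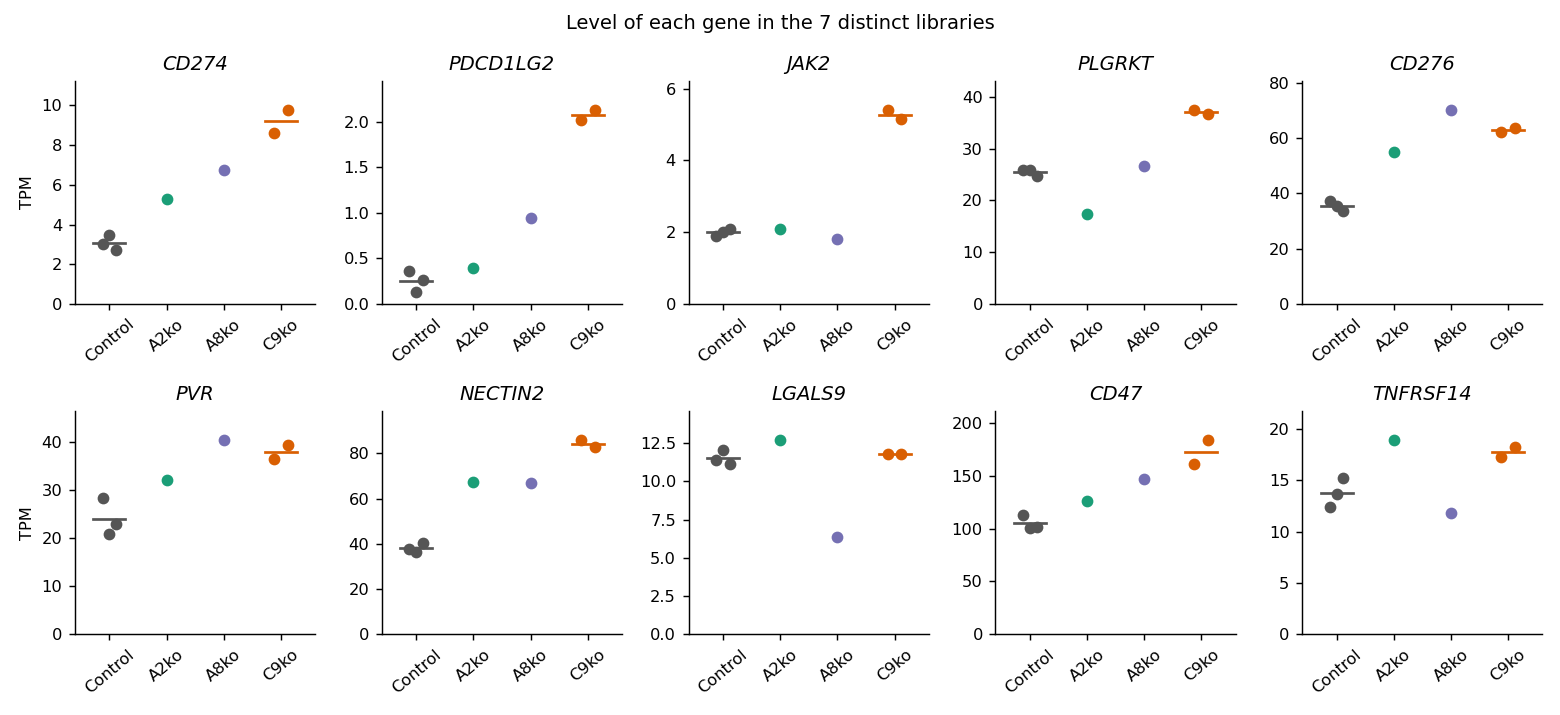
Level in TPM of each of the 10 genes in the 7 distinct libraries; each point is 1 library, the horizontal lines are group means for Control and C9ko, and each panel has its own vertical axis from 0. CD274 in C9ko (8.62 and 9.76 TPM) stood above A8ko, A2ko and all Control libraries, while JAK2 was high in C9ko alone and LGALS9 in C9ko lay within the Control range.

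CD274, the gene for PD-L1, spans chr9:5450503-5470566 on the plus strand (GRCh38). It was measured at 3.005, 3.45 and 2.72 TPM in Control libraries, 5.27 in A2ko, 6.75 in A8ko, then 8.62 and 9.76 in C9ko. Every knockout library lay above every Control library, and the C9ko libraries were the highest. Of the 17100 genes tested, 2911 had every knockout library above every Control library and 788 had every one below. The level was 1.72 times the Control mean in A2ko, 2.20 times in A8ko and 3.004 times in C9ko. In C9ko CD274 rose by 1.33 (SE 0.11) on the log2(TPM + 1) scale, on which all differences below are given (limma adjusted p = 0.000307, 3 Control against 2 C9ko libraries). This scale understates the change of genes with low TPM. With a single distinct library, A2ko (0.63 above Control) and A8ko (0.94 above) allow no test, and both were short of the 1 log2 unit used there to single out a gene. Over the 3 knockout groups as 1 value each, the mean difference was 0.97 (SE 0.20) and did not pass (limma adjusted p = 0.0851). The comparisons share the 3 Control libraries. In bulk RNA, a change in the share of cells that express a gene cannot be told apart from a change in RNA per cell.

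PDCD1LG2, the gene for PD-L2, begins 60.1 kb beyond the start of CD274, at chr9:5510570-5571254, also on the plus strand. Its Control values were 0.357, 0.135 and 0.266 TPM, A2ko had 0.393, A8ko 0.945, and the C9ko libraries 2.02 and 2.13 TPM. All knockout libraries were above the Control range, A2ko by a narrow margin. It passed the filter on low values (at least 1 TPM in at least 2 libraries) through C9ko alone and so had to differ there, so it is left out of the counts of tested genes and gets no test. As a description, the C9ko mean was 8.21 times the Control mean. PD-L2 transcript was below PD-L1 transcript in all 7 libraries, on the TPM scale.

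JAK2, a kinase that acts at the interferon-gamma receptor, lies on the other side of CD274, at chr9:4984390-5128183, with its start 466 kb before it. The Control libraries had 1.90, 2.01 and 2.09 TPM, A2ko 2.10, A8ko 1.802, and C9ko 5.403 and 5.15. The C9ko libraries stood far above all others, whereas A2ko and A8ko lay just outside the Control range on opposite sides. JAK2 rose in C9ko by 1.06 (SE 0.11, limma adjusted p = 0.000623), 2.64 times the Control mean. The differences in A2ko (0.05) and A8ko (-0.10) were small, and the former turned to -0.06 when libraries were scaled by the median of ratios.

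PLGRKT encodes a membrane receptor for plasminogen and lies between JAK2 and CD274 on the minus strand, at chr9:5357973-5437878. It had 25.9, 25.8 and 24.6 TPM in Control, 17.3 in A2ko, 26.6 in A8ko, then 37.4 and 36.6 in C9ko. A2ko was below all Control libraries, by 0.53, and C9ko above all of them. In C9ko PLGRKT rose by 0.52 (SE 0.06, limma adjusted p = 0.00132), or 1.45 times. The A8ko difference of 0.06 turned to -0.02 under median-of-ratios scaling.

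CD276 encodes B7-H3, a B7-family ligand often abundant on carcinoma cells (chr15:73683966-73714518). Control libraries had 37.3, 35.4 and 33.7 TPM, A2ko 55.2, A8ko 70.2, and C9ko 62.1 and 63.7. Here A8ko was the highest, and every knockout library exceeded every Control library. CD276 rose in C9ko by 0.81 (SE 0.07, limma adjusted p = 0.000261). Over the 3 knockout groups it rose by 0.80 (SE 0.11, limma adjusted p = 0.0308, higher in 3 of 3 groups), a call that was lost without any 1 of the Control libraries, where the adjusted p reached at most 0.213.

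PVR and NECTIN2 encode related nectin-family ligands and are near each other on chromosome 19. PVR (chr19:44643798-44663583) had 28.4, 20.9 and 23.0 TPM in Control, 32.2 in A2ko, 40.4 in A8ko, then 36.5 and 39.4 in C9ko. NECTIN2 (chr19:44846175-44889228) had 37.5, 36.1 and 40.1 TPM in Control, 67.3 in A2ko, 67.0 in A8ko, then 85.8 and 82.7 in C9ko. Both were above Control in every knockout library, but the PVR values in Control were the more scattered. CEACAM19 overlaps PVR on the same strand, at 7.93 TPM in Control, and could share reads with it, so the PVR level is uncertain. In C9ko PVR rose by 0.65 (SE 0.13, limma adjusted p = 0.00950), a call that was lost without C9ko replicate 2 or with no filter on low values. NECTIN2 rose in C9ko by 1.13 (SE 0.07, limma adjusted p = 8.2e-05). Over the 3 knockout groups NECTIN2 rose by 0.92 (SE 0.12, limma adjusted p = 0.0260, higher in 3 of 3 groups), lost again without any 1 Control library. The corresponding PVR difference of 0.60 did not pass (limma adjusted p = 0.124).

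CD47, the signal that binds SIRPA on macrophages, was the most abundant of the 10 genes in every library (chr3:108043094-108091862, minus strand). It had 113, 100.2 and 101.5 TPM in Control, 126 in A2ko, 147 in A8ko, then 161 and 183 in C9ko. All knockout libraries lay above the Control range. In C9ko CD47 rose by 0.71 (SE 0.09, limma adjusted p = 0.00132), 1.64 times.

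TNFRSF14 encodes HVEM, a TNF-receptor family member that acts as a ligand for BTLA (chr1:2555639-2565382). Its Control values were 12.4, 13.6 and 15.2 TPM, A2ko had 18.9, A8ko 11.8, and C9ko 17.3 and 18.3. A8ko was below the Control range and the other knockouts above it. The C9ko difference of 0.35 (SE 0.10) passed narrowly (limma adjusted p = 0.0350) and was lost in 7 alternatives, among them median-of-ratios scaling, where it was 0.23, and leaving out Control replicate 1 or 2 or either C9ko replicate. An antisense gene, TNFRSF14-AS1, overlaps it at 1.41 TPM in Control; the labels name a library method that marks strand, and whether the counting used strand is not given in the sources used here.

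LGALS9 encodes galectin-9, a secreted lectin (chr17:27629798-27649560). Control libraries had 11.4, 12.1 and 11.1 TPM, A2ko 12.7, A8ko 6.38, and both C9ko libraries 11.8. A8ko stood apart, 0.77 below Control, while the C9ko libraries lay within the Control range. The C9ko difference was 0.03, with a 95% interval from -0.15 to 0.21 (limma adjusted p = 0.792). Its sign, like that of the A2ko difference of 0.13, turned under median-of-ratios scaling. Near-identical copies, LGALS9B at 3.14 TPM and LGALS9C at 1.56 TPM in Control, could share reads with it, so its level is uncertain.

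Of the 9 genes that passed the filter without the help of C9ko, 8 rose in C9ko and none fell. Across the 17100 genes tested, 22.0% rose and 7.42% fell there. Under median-of-ratios scaling the calls over all genes moved from 3770 higher and 1268 lower to 2702 and 2099, since that scaling shifts the median of all genes in C9ko from 0.11 to 0.00. The median difference of the 9 genes in C9ko was 0.71 against that 0.11. Of the 9, 3 rose by at least 1 log2 unit, CD274, NECTIN2 and JAK2, as did 3.25% of all genes tested. In A2ko and A8ko none of the 9 was outside the Control range by 1 log2 unit, where 5.07% of all tested genes (3.54% above and 1.53% below) and 4.73% (2.05% and 2.68%) were. Their medians were 0.41 in A2ko and 0.48 in A8ko, against 0.12 and 0.09 over all genes. Over the 3 knockout groups 2 of the 9 rose, CD276 and NECTIN2, against 0.509% of all genes, with 1.03% called in either direction.

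Read by range alone, 8 of the 9 genes that passed the filter without C9ko were above all Control libraries in A2ko and 1, PLGRKT, was below. Over all tested genes 50.4% were above and 26.3% below. In A8ko 6 of the 9 were above and 3, JAK2, LGALS9 and TNFRSF14, below, against 46.9% and 26.4%. In C9ko both libraries were above all Control libraries for 8 of the 9, against 41.1%, and LGALS9 overlapped. PDCD1LG2, which passed the filter through C9ko alone, is not counted here.

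**Figure D2:**
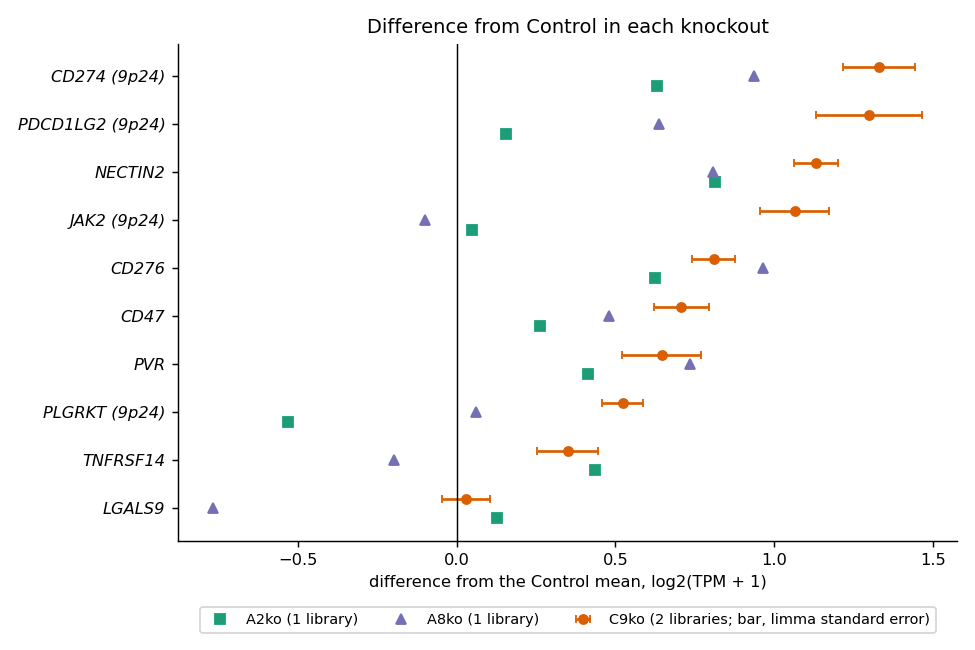
Difference of each of the 10 genes from the Control mean on the log2(TPM + 1) scale, with 1 library each for A2ko and A8ko and 2 for C9ko; bars are limma standard errors, given for C9ko only. On this scale CD274 has the largest difference in C9ko (1.33), just above PDCD1LG2 (1.30). JAK2 lies near 0 in A2ko and A8ko, PLGRKT is at -0.53 in A2ko, and LGALS9 is lowest in A8ko (-0.77).

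The neighbours of CD274 on 9p24 were examined with a list of 34 genes, of which 21 were tested. In C9ko 16 of the 21 rose and 1 fell, against 22.0% and 7.42% of all genes, with a median difference of 0.66. RLN2 was 1 of the 16 and passed the filter through C9ko alone. The risers included VLDLR, a lipoprotein receptor (3.34 ± 0.164 TPM in Control and 7.33 ± 0.637 in C9ko, difference 0.94), AK3, a mitochondrial adenylate kinase (23.8 ± 1.26 and 44.4 ± 2.59 TPM, difference 0.87), and RCL1, a factor of ribosomal RNA processing (19.2 ± 0.710 and 35.1 ± 1.18 TPM, difference 0.84). PLPP6, a lipid phosphatase, rose by 0.92, DMAC1, an assembly factor of respiratory complex I, by 0.78 and RANBP6 by 0.72. DMRT2, a transcription factor, fell by 1.17 (limma adjusted p = 0.00176), and KANK1, GLIS3, SPATA6L and RIC1 did not pass.

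In A2ko and A8ko the list medians of these 21 neighbours were -0.07 and -0.02. None of the 21 was outside the Control range by 1 log2 unit, which is near the 5.07% and 4.73% of all tested genes. In C9ko the neighbours of CD274 were higher too, while the higher CD274 values of A2ko and A8ko stood beside neighbours close to Control. There were 26 tested genes that start within 5 Mb of CD274, among them JAK2, PLGRKT and PDCD1LG2. With those 3 left out, 16 of 23 (69.6%) rose in C9ko. Other genes that passed the filter through C9ko alone were kept in this count and in the other counts by distance. The shares over all 17100 tested genes also hold 602 such genes. On the log2(TPM + 1) scale CD274 had a larger difference in C9ko than each of the 26. It also exceeded all 26 in A8ko, and all but 1, an unnamed gene, in A2ko. Its place above PDCD1LG2 in C9ko and A8ko rests on the 1 added to TPM before the log. With 0.1 added instead, PDCD1LG2, which passed the filter through C9ko alone, was at 2.68 in C9ko and CD274 at 1.56. As ratios to the Control mean PDCD1LG2 and CD274 stood at 8.21 and 3.004 in C9ko, and at 3.74 and 2.20 in A8ko.

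Scaled to the median of 15 of the 9p24 neighbours, an alternative added once the data had been seen, CD274 was still higher in C9ko by 0.71 (SE 0.13, limma adjusted p = 0.00249). JAK2 was higher by 0.50 (SE 0.11, limma adjusted p = 0.00632). PLGRKT turned to -0.18 (SE 0.08, limma adjusted p = 0.0714). The scaling factor was 0.825 to 0.897 in Control and 1.39 and 1.48 in C9ko, and it divided every gene of the library. The adjustment over all genes thus ran on values lowered in C9ko, and the error of the neighbour median was not counted. On that scale A2ko and A8ko had CD274 at 0.62 and 0.90 above Control, close to their unscaled values. CD274 and JAK2 thus exceeded the median of these neighbours in C9ko, and PLGRKT did not.

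Along chromosome 9, with the 10 genes left out, the median C9ko difference was 0.56 over the 18 genes up to 6 Mb before CD274 and 0.69 over the 8 genes within 5 Mb after it. It was 0.46 over the 29 genes from 10 to 20 Mb, 0.48 over 51 genes from 20 to 30 Mb and 0.44 over 62 genes from 30 to 60 Mb. Beyond, it was 0.09 over the 105 genes from 60 to 90 Mb and 0.11 over the 370 genes from 90 to 140 Mb. The share of genes that rose was 54.8% from 30 to 60 Mb and 18.1% from 60 to 90 Mb. In A8ko no interval had a median above 0.11, and in A2ko the medians ran from -0.03 to 0.35, the highest over only 8 genes. What part this stretch of chromosome 9 has in the C9ko values of CD274, PDCD1LG2, JAK2 and PLGRKT was not tested.

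**Figure D3:**
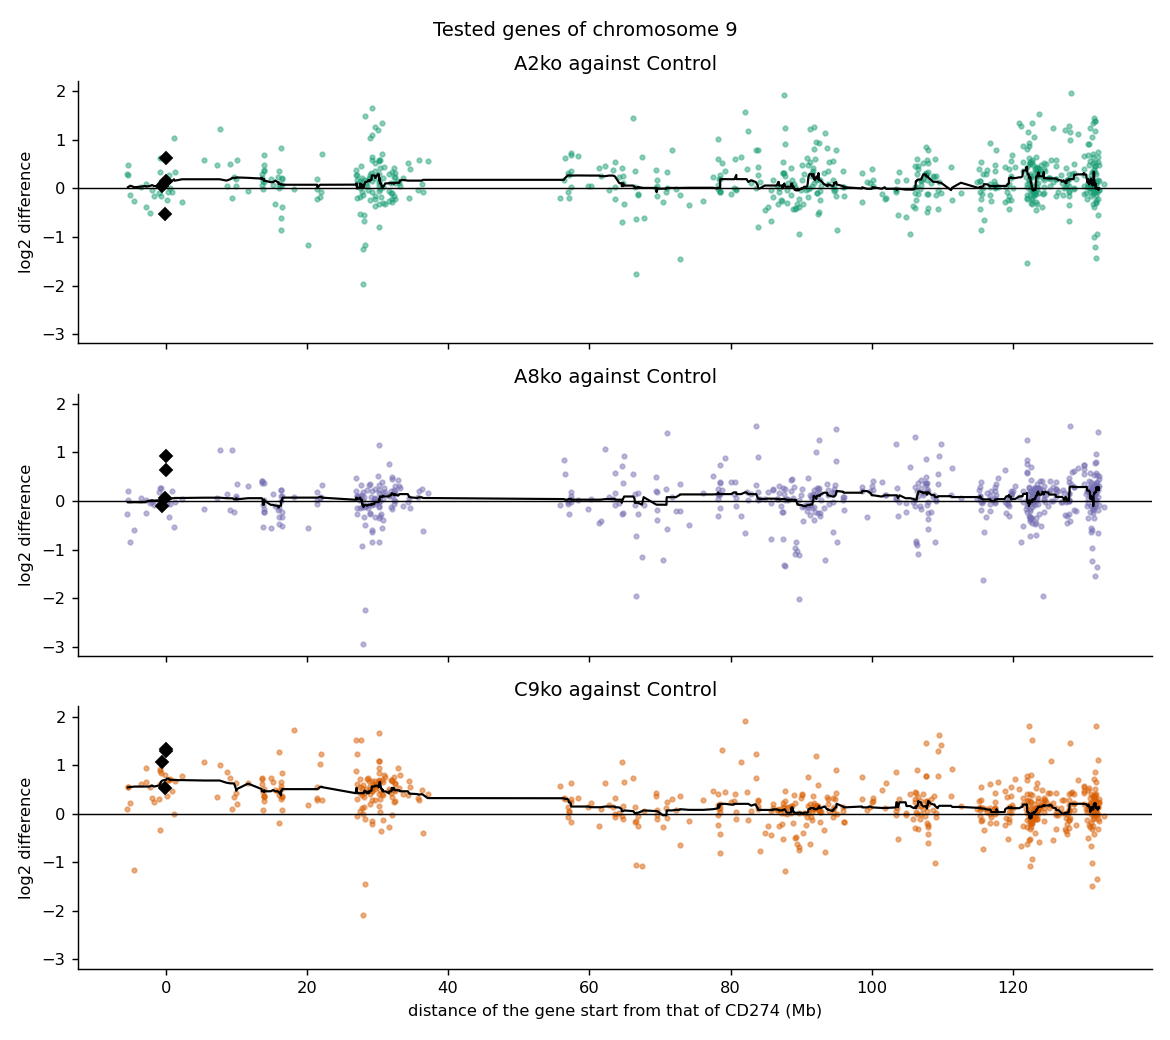
Difference from Control on the log2(TPM + 1) scale of the tested genes of chromosome 9 against the distance of the gene start from that of CD274; circles are genes, black diamonds CD274, PDCD1LG2, JAK2 and PLGRKT, and the line is a running median over neighbouring genes. In C9ko the median is 0.44 between 30 and 60 Mb and 0.09 between 60 and 90 Mb, and in A8ko no interval has a median above 0.11.

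The same count was made in C9ko around the 6 genes outside 9p24. Among tested genes starting within 5 Mb, with the 10 genes left out, 21.4% rose around CD276, 14.8% around PVR, 15.3% around NECTIN2, 25.9% around LGALS9, 34.6% around CD47 and 10.8% around TNFRSF14. Over all genes the share was 22.0%, and the CD47 value rests on 26 genes.

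Interferon-gamma and JAK-STAT signalling, the pathway best known to raise PD-L1, was followed with 32 genes, of which 30 were tested. In C9ko 20 rose and 1 fell, with a median of 0.44, against 22.0% and 7.42% of all genes. Both receptor chains rose, IFNGR1 from 93.9 to 154 TPM (0.70, limma adjusted p = 0.000434) and IFNGR2 from 83.4 to 147 TPM (0.82, limma adjusted p = 0.000289). So did the kinase JAK1 (0.33). IRF1, the factor that binds the CD274 promoter, was at 127 TPM in Control and 129 in C9ko and did not pass. IDO1, the interferon-induced enzyme of tryptophan breakdown, fell by 0.99. IFNG itself did not pass the filter.

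CXCL10 and CXCL11 are chemokines that draw in T cells through CXCR3. CXCL11 had 8.21, 6.99 and 6.27 TPM in Control, 2.78 in A2ko, 43.4 in A8ko, then 51.6 and 55.7 in C9ko. CXCL10 had 11.2, 13.0 and 13.3 TPM in Control, 8.17 in A2ko, 28.6 in A8ko, then 33.4 and 37.0 in C9ko. A8ko and C9ko were far above Control for both, and A2ko below. In C9ko CXCL11 rose by 2.75 (limma adjusted p = 1.93e-05) and CXCL10 by 1.42 (limma adjusted p = 0.000121).

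IRF9, GBP2 and IRF7 lay above Control in A2ko and below it in A8ko. IRF9, a subunit of the complex that binds the interferon-stimulated response element, had 6.25, 13.4 and 10.6 TPM in Control, 47.4 in A2ko, 4.003 in A8ko, then 13.4 and 13.8 in C9ko. GBP2, a guanylate-binding protein, was at 15.3 ± 1.08 TPM in Control, 36.8 in A2ko and 11.02 in A8ko. With 25.7 ± 1.71 TPM it rose in C9ko by 0.71. IRF7 rose in C9ko by 0.46 and passed narrowly (limma adjusted p = 0.0491). SOCS3, a feedback inhibitor of JAK kinases, was at 27.4 ± 2.22 TPM in Control, 54.3 in A2ko and 57.9 in A8ko, and rose in C9ko by 0.43. The list median was 0.30 in A2ko and 0.18 in A8ko. Outside the Control range by 1 log2 unit were 2 genes above and 1 below in A2ko, and 3 and 2 in A8ko. Over all genes the shares above and below were 3.54% and 1.53% in A2ko, and 2.05% and 2.68% in A8ko.

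Transcription factors outside the interferon pathway that are known to act on CD274 formed a list of 20, of which 19 were tested. In C9ko 11 rose and 3 fell, against 22.0% and 7.42% of all genes, with a median of 0.35. FOSL1, an AP-1 subunit, had 77.3, 72.1 and 74.3 TPM in Control, 38.9 in A2ko, 256 in A8ko, then 182 and 183 in C9ko. FOS, another subunit, had 141, 149 and 146 TPM in Control, 244 in A2ko, 59.1 in A8ko, then 25.6 and 26.3 in C9ko. The 2 subunits lay on opposite sides of Control in every knockout. FOSL1 rose in C9ko by 1.28 (limma adjusted p = 3.33e-05) and FOS fell by 2.44 (limma adjusted p = 5.7e-06). JUN rose by 1.13, from 25.1 ± 2.45 to 56.0 ± 0.425 TPM, and had 64.9 TPM in A8ko and 26.4 in A2ko. RELB, an NF-kB subunit, rose by 0.95 and KLF5 fell by 0.84. ATF3 rose by 0.32 in C9ko and stood at 35.3 ± 1.35 TPM in Control and 10.8 in A2ko.

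Of 20 genes for the sugar chains, trafficking and turnover of the PD-L1 protein, 7 rose in C9ko, 13 did not pass and none fell. Over all genes 22.0% rose and 7.42% fell. The median was 0.18, close to the 0.11 of all genes. None of the 20 was outside Control by 1 log2 unit in A2ko or A8ko, near the 5.07% and 4.73% of all genes. CMTM6, which keeps PD-L1 at the cell surface, had 52.2, 49.3 and 51.8 TPM in Control, 64.3 in A2ko, 60.8 in A8ko, then 119 and 129 in C9ko, a rise of 1.26 (limma adjusted p = 4.63e-05). STT3B, a catalytic subunit of the oligosaccharyltransferase, rose by 1.29 (44.6 ± 0.737 to 110 ± 3.17 TPM). Most neighbours of these genes rose as well in C9ko, 31 of 34 around CMTM6 and 23 of 25 around STT3B within 5 Mb. STT3B (chr3:31532638-31637622) and CMTM6 (chr3:32481312-32503408) are near each other. Their windows overlap and each counts the other gene, so these are not separate observations. ZDHHC3, a palmitoyltransferase, rose by 0.85, the glycosyltransferase B3GNT3 by 0.59, the kinase GSK3B by 0.58 and STT3A by 0.50.

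Other ligands of the same families moved in both directions. Of the 9 tested genes among 15 other B7 and butyrophilin ligands, 2 rose in C9ko, ICOSLG (0.99) and BTN2A2 (0.41), and 2 fell, VSIR (-1.10) and VTCN1 (-0.65). Over all genes 22.0% rose and 7.42% fell there, so the 2 risers of 9 are near that share. VSIR encodes VISTA, an inhibitory ligand of T cells, and had 44.6, 41.6 and 43.7 TPM in Control, 43.1 in A2ko, 13.3 in A8ko, then 18.1 and 21.3 in C9ko. The genes for CD80 and CD86, ligands of CD28 and CTLA4, did not pass the filter. Of the 4 tested nectins, NECTIN3 (0.55) and CADM4 (0.49) rose in C9ko, while NECTIN1 (-0.81) and NECTIN4 (-0.36) fell. NECTIN1 had 54.5, 60.4 and 59.7 TPM in Control, 39.8 in A2ko, 31.4 in A8ko, then 32.8 and 32.7 in C9ko, the opposite side of Control from NECTIN2 in every knockout. CADM4 was at 5.27 ± 0.662 TPM in Control, 21.9 in A2ko and 1.99 in A8ko.

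Among 10 tested TNF superfamily molecules that signal between tumour and T cells, 4 rose in C9ko and 2 fell. The shares over all genes were 22.0% and 7.42%. TNFSF15 (1.28), TNFRSF9 (0.89), the death receptor gene FAS (0.83) and TNFSF14 (0.74) rose. TNFSF14 encodes LIGHT, a ligand of HVEM, and went from 1.79 to 3.64 TPM. TNFSF9 fell by 1.12 and CD70 by 0.69, and both were higher in A2ko, TNFSF9 at 68.5 TPM against 31.1 ± 1.05 in Control and CD70 at 52.1 against 20.96 ± 1.34. TNFSF10, which encodes TRAIL, had 321 ± 7.78 TPM in Control, 434 in A2ko and 98.5 in A8ko, and did not pass in C9ko.

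Of 14 tested galectins and other inhibitory molecules, 5 rose in C9ko and 1 fell, against 22.0% and 7.42% of all genes. CD24, the ligand of Siglec-10 on macrophages, had 46.3, 41.8 and 47.1 TPM in Control, 28.7 in A2ko, 46.9 in A8ko, then 176 and 182 in C9ko. The C9ko libraries stood alone, with a rise of 1.97 (limma adjusted p = 1.63e-05). NT5E, the adenosine-forming enzyme CD73, rose by 1.12 and was at 54.3 TPM in A8ko and 11.3 in A2ko against 18.3 ± 1.24 in Control. QPCTL, which modifies the SIRPA-binding end of CD47, rose by 0.67 and LGALS1, galectin-1, by 0.50. LGALS7B fell by 1.44, and reads could be shared with its near-identical copy LGALS7. CEACAM1, a TIM-3 partner, was at 8.22 TPM in A2ko and 0.788 in A8ko against 2.11 ± 0.0844 in Control. QPCT was at 6.93 TPM in A2ko against 1.95 ± 0.472.

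Of the 8 ligands of NKG2D, a receptor by which natural killer cells recognise stressed cells, 4 rose in C9ko and 2 fell. The shares over all genes were 22.0% and 7.42%. MICB rose by 0.88, RAET1G by 0.62, MICA by 0.46 and ULBP2 by 0.27, while ULBP1 (-0.64) and RAET1L (-0.53) fell. In Control ULBP2 stood at 27.8 ± 1.75 TPM and in A2ko at 58.2 TPM. Over the 3 knockout groups, 3 genes of all these lists passed: NECTIN1 (-0.74) and LGALS7B (-1.66) fell and TNFRSF9 (1.03) rose. Over all genes this comparison called 176, and 5 to 11 without 1 of the Control libraries.

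**Figure D4:**
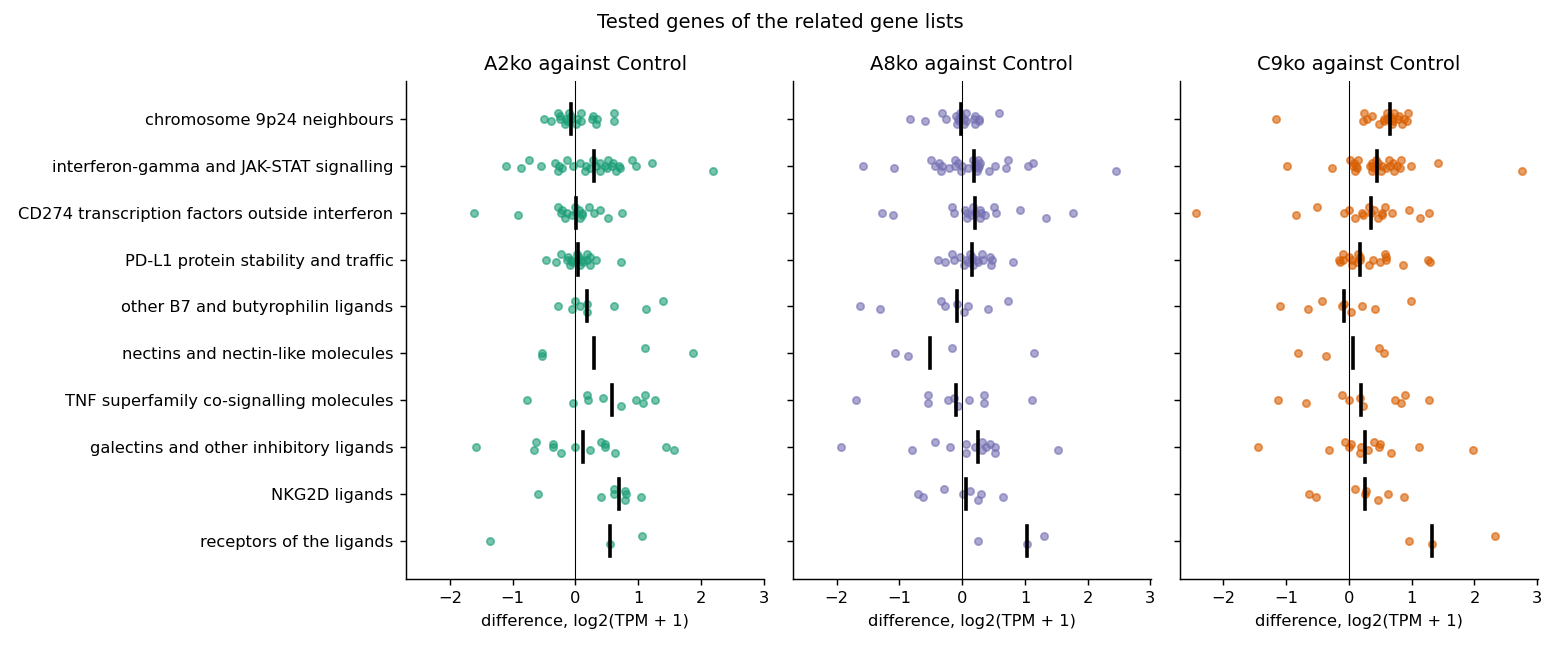
Difference from Control on the log2(TPM + 1) scale of the tested genes of each related list in A2ko, A8ko and C9ko; each circle is a gene and each vertical bar the list median. In C9ko the 9p24 neighbours have a median of 0.66 and interferon-gamma and JAK-STAT signalling 0.44, and the nectin and B7 lists hold genes on both sides of 0.

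Few receptors passed the filter, with 3 tested of 16 listed receptors and binding partners. PDCD1, which encodes PD-1, TIGIT, CD226, HAVCR2 and BTLA did not pass the filter. SIRPA, the partner of CD47, had 5.35, 6.09 and 5.82 TPM in Control, 13.1 in A2ko, 15.7 in A8ko, then 31.7 and 34.0 in C9ko. SIRPA rose in C9ko by 2.33 (limma adjusted p = 1.59e-05), more than each of the 67 tested genes within 5 Mb. Of those 67, 43 (64.2%) rose, against 22.0% of all genes. THBS1, a secreted ligand of CD47, had 357 ± 10.3 TPM in Control, 138 in A2ko and 426 in A8ko, and rose in C9ko by 0.95. SIRPB1 passed the filter through C9ko alone.

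Markers of other cell types were mostly low. None of 8 T and NK cell markers reached 1 TPM in any library, with CD3D and CD2 at 0 throughout and a summed level of at most 2.20 TPM, and the 4 B cell markers summed to at most 0.572 TPM, with MS4A1 at 0. The summed myeloid markers were 42.8 to 51.1 TPM in Control, 60.9 in A2ko, 84.2 in A8ko and 66.9 to 68.4 in C9ko. Nearly all of this was CD14 and CD68, while LYZ, CSF1R, ITGAM, FCGR3A and CD163 were at 1.33 TPM or below. In C9ko CD14 rose by 1.66, from 15.7 to 51.7 TPM, and CD68 fell by 1.01, from 29.7 to 14.2 TPM. ITGAM passed the filter through C9ko alone. Fibroblast markers summed to 10.8 to 12.2 TPM in Control, 17.7 in A2ko, 7.36 in A8ko and 11.02 to 11.8 in C9ko, with COL3A1 at 0 in all libraries. Endothelial markers summed to 3.51 to 4.55 TPM in Control, 12.8 in A2ko, 8.63 in A8ko and 22.2 to 30.1 in C9ko, nearly all of it CDH5, with KDR at 0 and PECAM1 at 0.295 TPM or below. The part of CD14, CD68 and CDH5 in the results was not tested.

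Over the 7 libraries, the genes whose log2(TPM + 1) pattern was most like that of CD274 were FCMR (Pearson r = 0.996), NHLRC3 (0.995), ZNF281 (0.991), INAFM2 (0.988) and the transcription factor gene SOX4 (0.987). FCMR went from 3.14 TPM in Control to 5.96, 8.21 and 13.2 in A2ko, A8ko and C9ko. SOX4 went from 3.76 to 5.89, 7.83 and 11.6. The comparison took only genes whose range over the libraries was at least 0.5 times that of CD274. Of these 2638 genes, 113 reached r = 0.95 over the 7 points, which share the 3 Control libraries. Among the other 9 genes of the set, CD47 (0.968) and NECTIN2 (0.956) were most like CD274, then CD276 (0.926) and PDCD1LG2 (0.925). JAK2 had r = 0.768, PLGRKT 0.572 and LGALS9 -0.169. For PDCD1LG2 the most alike were ALDH1B1 (0.997), NME6 (0.996), ABCC4, MST1R and LYN (0.995 each), and 252 of the 2885 genes with at least 0.5 times its range reached 0.95.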

How the data were processed

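PolyA RNA of CAL27 cells was sequenced in 9 samples (3 Control and 2 each of A2ko, A8ko and C9ko). The authors deposited 1 table of TPM per sample, with 78894 Ensembl identifiers. Reads were placed on hg38, per the submitters' processing notes, and the aligner, counter and annotation release are not given in the sources used here. Symbols were found for 61463 identifiers, and positions were taken from GENCODE for 57342. Identical files were counted as 1 library. Genes with at least 1 TPM in at least 2 distinct libraries were tested (17100) on log2(TPM + 1) with limma 3.58.1 in R 4.3.3 (empirical Bayes with trend, Benjamini-Hochberg adjustment over all tested genes, called at 0.05). C9ko was tested in a fit of all 4 groups, and the knockouts together as 3 group means against 3 Control libraries. For A2ko and A8ko, with 1 library each, a gene was singled out when it lay outside the Control range by a difference from the mean of 1 log2 unit or more. The fit was tested on simulated data.

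The 10 genes and the lists were chosen with earlier results of these data known. All 10 are named. Of each list, at most 6 genes were named by rule: those with the largest difference in any knockout among called genes with a mean of at least 5 TPM in a group. Genes named beyond these (IFNGR1, IFNGR2, JAK1, IRF1, IDO1, DMRT2, KANK1, GLIS3, SPATA6L, RIC1, RLN2, VTCN1, TNFRSF9, TNFSF14, LGALS7B, ULBP1, RAET1L and SIRPB1, and some markers of cell types) were chosen after their values were seen. Likeness to CD274 and PDCD1LG2 was ranked by Pearson r among tested protein coding genes with a mean of at least 5 TPM and at least 0.5 times the range of the gene in question. Alternatives changed the pseudocount, the filter, the scaling, the libraries used and the fit. Reads per library are unknown, so no counting interval was given. Not every listed gene is reported here by name.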

Additional observations from a re-analysis of the deposited data

Results flagged for a closer look

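For the following genes one knockout lay above every Control library and another below every Control library, and the gap between the highest and the lowest knockout is given on the log2(TPM + 1) scale. The difference was not tested for any of them, because 2 of the knockouts have a single library, and the comparisons share the Control libraries. Over all tested genes 50.4% lay above and 26.3% below all Control libraries in A2ko, 46.9% and 26.4% in A8ko, and 41.1% and 16.4% in C9ko. How many of all genes lay on opposite sides was not counted. Some margins were small. In A2ko JAK2 had 2.101 TPM against a Control maximum of 2.091, and TNFSF15 1.777 against a minimum of 1.786. Among the 10 genes, the gap was 1.16 for JAK2 and 0.63 for TNFRSF14, both above Control in A2ko and C9ko and below in A8ko. It was 1.05 for PLGRKT, above in A8ko and C9ko and below in A2ko, and 0.89 for LGALS9, above in A2ko and below in A8ko.

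Beside the 10, only genes named in the text were examined in this way, so other listed genes may show the same pattern. Of those named by rule from the lists, 11 were above Control in A8ko and C9ko and below in A2ko. These were CXCL11 (3.85), FOSL1 (2.69), THBS1 (2.31), NT5E (2.17), CXCL10 (1.98), ATF3 (1.94), TNFSF15 (1.32), ICOSLG (1.27), RCL1 (1.01), B3GNT3 (0.93) and LGALS1 (0.75). Above in A2ko and C9ko and below in A8ko were CADM4 (2.94), CEACAM1 (2.37), GBP2 (1.65), IRF7 (1.22) and VLDLR (1.19). Above in A2ko alone, with A8ko and C9ko below, were FOS (3.19), TNFSF9 (2.24), TNFSF10 (2.13) and CD70 (1.97), and IRF9 (3.28) was above in A2ko and below in A8ko. CD24 (2.60), FAS (1.61) and DMAC1 (1.06) were above in C9ko and below in A2ko.

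Among genes named outside that rule, IFNGR1 (1.07), KANK1 (1.06) and the squamous marker TP63 (0.67) were above Control in C9ko and below in A2ko and A8ko, and RIC1 (0.62) was above in C9ko and below in A2ko. VTCN1 (2.43), RAET1L (1.501) and ULBP1 (1.42) were above in A2ko and below in the other knockouts. The squamous markers COL17A1 (2.03), SFN (0.92) and EPCAM (0.53), and SPATA6L (0.40), were below in A2ko and above in the other knockouts. TNFSF14 (0.87) was above in A2ko and C9ko and below in A8ko, KRT17 (1.84) was above in A2ko and below in A8ko, and the myeloid marker CD68 (2.15) was below in C9ko and above in A2ko and A8ko.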

How the results depend on the processing

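CD274, JAK2, CD276, NECTIN2 and CD47 stayed higher in C9ko in every alternative run for them. Differences ranged from 0.71 to 1.56 for CD274 and from 0.50 to 1.36 for JAK2. The limma adjusted p stayed under 0.05 wherever both C9ko libraries were kept, with the scaling to the 9p24 neighbours, given above, left aside. Fits that keep 1 C9ko library are described by the difference alone. Without C9ko replicate 1 or 2 it was 1.41 or 1.25 for CD274 and 1.03 or 1.09 for JAK2. For CD276 it was 0.83 or 0.79, for NECTIN2 1.11 or 1.16 and for CD47 0.80 or 0.61. Of the 9 genes that passed the filter without C9ko, the number called higher in C9ko, 8, was 6 with no filter on low values and 6 to 8 when 1 library was left out. Among all genes the C9ko calls numbered 5038. They were 3301 to 4174 when 1 library was left out, lowest without C9ko replicate 2, and 8166 with all 9 files taken as separate libraries. A replicate block gave 3246. The deviations of Control 1 and 2 against those of C9ko 1 and 2 had r = -0.04 across genes, which gave no sign of pairing by number. With only 2 libraries of each group compared, this check cannot settle whether samples were paired.

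The comparison of all knockouts was fragile. Its 176 calls became 23 with no filter, 5 to 11 without 1 Control library, 1993 without A2ko, 67 without C9ko, 8520 with 9 separate files and 4361 as an average within the 4-group fit. Of the same 9 genes, 2 were called, and this became 0 with no filter or without any 1 Control library, 1 under median-of-ratios scaling, without A8ko or without C9ko, 5 without A2ko, 7 with 9 separate files and 6 as an average within the 4-group fit. At an unadjusted p under 0.05, limma counted 2740 genes, 3850 with no filter and 1528 to 1778 without 1 Control library. The split over all genes of 87 higher and 89 lower became 37 and 96 under median-of-ratios scaling.

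For A2ko the 867 genes became 1813 with a pseudocount of 0.1, 248 with 5, 380 with a mean of at least 5 TPM and 893 to 909 without 1 Control library. For A8ko the 809 genes became 1689, 269, 412 and 843 to 870. Of these 9 genes, 1 passed in A8ko with a pseudocount of 0.1 (CD274), without Control replicate 1 (CD276) and without Control replicate 2 (CD274), against 0.

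Signs that turned were few. In C9ko PLGRKT was -0.18 scaled to the 9p24 neighbours, and LGALS9 was -0.083 under median-of-ratios scaling and -0.064 with mitochondrial genes left out. Over all knockouts JAK2 was -0.025 without C9ko, and LGALS9 was 0.079 without A8ko. PLGRKT, at 0.02, was -0.10 under median-of-ratios scaling, -0.034 with mitochondrial genes left out, -0.0038 to 0.030 without 1 Control library, -0.0038 also without A8ko, -0.23 without C9ko and -0.25 scaled to the 9p24 neighbours. The cause of these changes was not tested. Unknown depth limits what can be said of PDCD1LG2, near 0 TPM in Control.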
